A study of Mus musculus with 6 samples.

Results

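Hepatocytes are recognised by what they secrete and by the chemistry they carry out, and 48 mouse genes for these tasks were followed in the hepatocyte line AML12. The 48 were chosen by name as plasma protein, apolipoprotein, coagulation, complement, urea cycle, gluconeogenesis, cytochrome P450 and bile acid genes. The rule used no measured value, although earlier results of these data were known when the names were listed. Of the 48, 42 have a row among the 23886 Ensembl genes of the deposited tables, and F10, Plg, Ahsg, Otc, Cyp2e1 and Cyp3a11 were not analysed here. Poly(A) RNA was sequenced from 3 untreated samples of wild type AML12 cells (Control 2, 3 and 4) and 3 samples of the same line kept in a static magnetic field (SMF 1, 2 and 3). The sources used here give neither the strength of the field nor how long it was applied. All 6 libraries come from 1 immortal line, which was derived from liver cells of a mouse carrying a human TGF-alpha transgene, and the labels do not say whether the samples were separate cultures, so the p-values measure only the spread between these samples. The series holds no liver tissue, so a gene is described as measured or not measured in this line and not as lost from a known starting level.

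In the adult liver, hepatocytes make most of the proteins of blood plasma, load lipids onto apolipoprotein B, turn ammonia into urea, make glucose during fasting and convert cholesterol into bile acids. Many of these genes are switched on late in liver development by HNF4, C/EBP and FOXA factors, while Afp, the fetal counterpart of albumin, is switched off after birth. Cultured hepatocytes are known to let go of parts of this program.

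The reads recovered from the deposited values totalled between 15514530 (SMF 1) and 18200516 (Control 3) a library, and 11114 genes reached 1 FPKM (fragment counts divided by gene length and by the total of the library) in at least 3 of the 6 libraries. With limma on log2(FPKM + 1), none of these 11114 genes passed an adjusted p of 0.05 (0.0%), and 1998 had an unadjusted p under 0.05 (18.0%). With limma-voom on the recovered reads, 510 passed the adjusted threshold (4.59%).

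Of the 10 hepatocyte markers set for the check of the label, all but Hnf4a are members themselves, so the check mostly repeats member levels. Hnf4a, Alb and Ttr had a mean of at least 1 FPKM. Apoa1, Apoc3, Fga, Fgb, Serpina1a and Cps1 were below 1 FPKM, and Apoa2 was at 0 in every library. Hnf4a, the nuclear receptor at the head of the hepatocyte program, stood at 91.6 ± 4.32 FPKM without the field and 91.4 ± 1.95 with it (SD, n = 3). Markers of bile duct cells and liver progenitors were far more abundant, with 5 of 7 above 1 FPKM and a summed level of 2184 to 2310 FPKM in controls and 2193 to 2351 in SMF libraries. Krt19, a keratin of bile duct cells, was at 1063 ± 10.7 and 1110 ± 74.9 FPKM, and Spp1, a secreted phosphoprotein of the same cells, at 862 ± 48.4 and 869 ± 23.3, whereas Epcam and Prom1 were below 1 FPKM. Summed levels of Kupffer cell and leukocyte markers (3.36 to 4.78 FPKM over 4 genes with a row, of 8), endothelial markers (1.46 to 2.33 over 5 of 8) and stellate cell or fibroblast markers (1.43 to 1.94 over 8 of 9) were low in both groups, with 3 of the stellate markers, Reln, Col1a2 and Dcn, at 0 in every library. The progenitor and hepatocyte sums of the groups overlapped, and the part of other cell states in the member values was not tested. In bulk RNA, fewer cells of a type and less RNA per cell cannot be told apart.

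**Figure D1:**
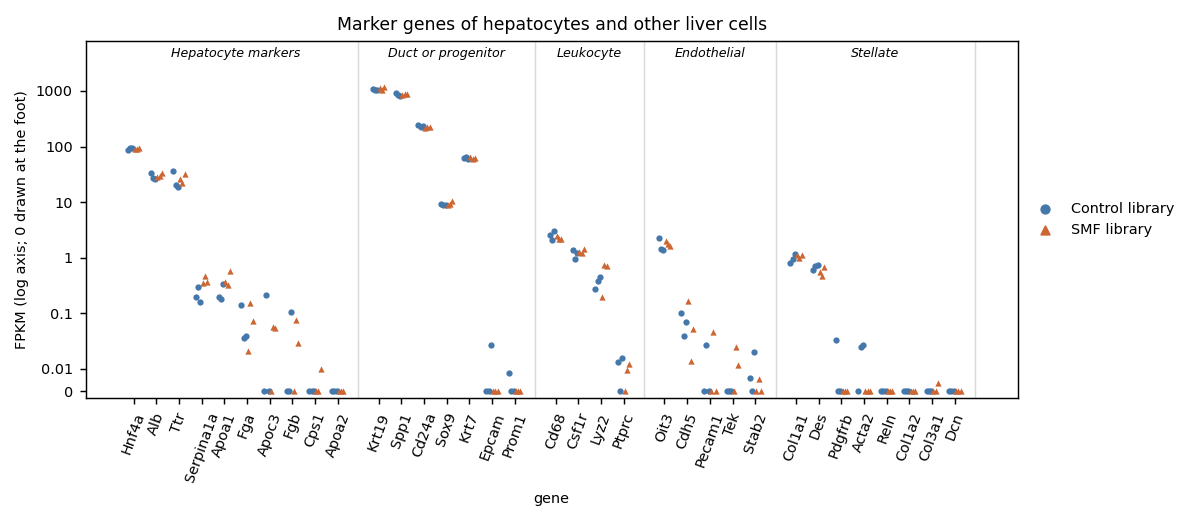
FPKM of marker genes in each of the 6 libraries (log axis, values of 0 drawn at the foot; circles are Control libraries, triangles SMF libraries; each point is 1 library). Hnf4a, Alb and Ttr lie above 1 FPKM and the other 7 hepatocyte markers below it, while Krt19 averages 1063 FPKM in Control and 1110 FPKM in SMF libraries.

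The members ranged from 0 to 211 FPKM. By their mean over the 6 libraries, 1 member was at 100 FPKM or more, 7 were between 10 and 100, 8 between 1 and 10, 22 above 0 and below 1, and 4 at 0 in every library. Of all 23886 listed genes, 1.77%, 19.5%, 25.1%, 45.8% and 7.88% fell into the same 5 classes. The summed FPKM of the 42 members was 474 to 519 in controls and 501 to 539 in SMF libraries, and the 5 most abundant members (Rbp4, Trf, Cp, Hpx and Alb) made up 78.2% to 81.3% of it. The sums of the groups overlapped, since Control 2 lay above SMF 1 and SMF 2. Of the 42, 16 passed the filter of 1 FPKM in at least 3 libraries and entered the test, and none of the 16 passed through 1 group alone.

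**Figure D2:**
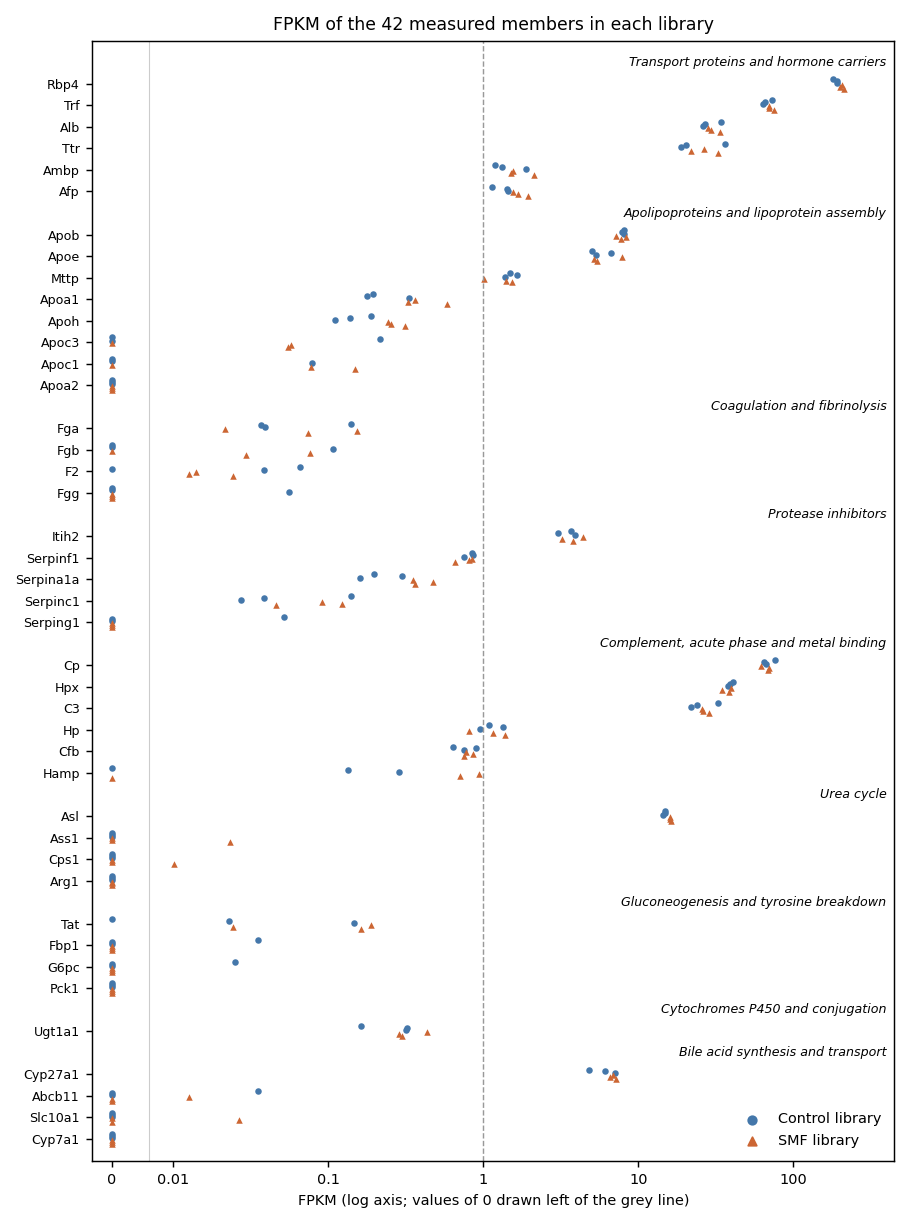
FPKM of each of the 42 members with a row, by role, in each library (log axis, values of 0 drawn left of the grey line; the dashed line marks 1 FPKM; circles are Control and triangles SMF libraries). The plasma carriers reach 211 FPKM in Rbp4, while coagulation and gluconeogenesis members lie below 1 FPKM throughout.

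Promoter sequence was set beside these levels as a description, without a test. RefSeq promoter windows (build GRCm38.p6, 250 bases before the start to 50 after it) matched 36 of the 48 members by symbol. The 6-base motif GTTAAT, or its reverse complement ATTAAC, was found in the first listed window of 10 of the 36, against 7.20% of 27025 promoters of the same length. It was present in 3 of the 12 windows of tested members and in 7 of the 19 windows of members that have a row and did not pass the filter, so it occurred on both sides of the filter. The 5 windows below hold it and belong to members with means of 29.8 FPKM (Alb), 0.308 (Serpina1a), 0.304 (Ugt1a1), 0.0355 (Fgb) and 0 (Pck1). No rule set in advance chose these 5 among the 10. The others with a match were Cp (mean 68.0 FPKM), Afp (1.53), Fga (0.0775), F2 (0.0258) and G6pc (0.00416). Capitals mark the motif, and every window is written 5′ to 3′ on the strand of its gene.
Alb, chr5:90460620-90460919, plus strand: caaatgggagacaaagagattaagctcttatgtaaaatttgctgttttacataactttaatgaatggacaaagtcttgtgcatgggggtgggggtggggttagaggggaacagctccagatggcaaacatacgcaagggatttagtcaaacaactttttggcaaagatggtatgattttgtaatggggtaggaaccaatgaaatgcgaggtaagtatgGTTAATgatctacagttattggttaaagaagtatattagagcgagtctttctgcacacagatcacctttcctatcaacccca
Serpina1a, chr12:103863570-103863869, minus strand: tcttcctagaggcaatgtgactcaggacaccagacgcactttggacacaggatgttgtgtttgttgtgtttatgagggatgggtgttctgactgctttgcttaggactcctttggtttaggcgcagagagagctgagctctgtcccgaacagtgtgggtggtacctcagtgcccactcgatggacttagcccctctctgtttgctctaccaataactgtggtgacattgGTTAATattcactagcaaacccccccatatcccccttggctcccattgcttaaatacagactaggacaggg
Ugt1a1, chr1:88211709-88212008, plus strand: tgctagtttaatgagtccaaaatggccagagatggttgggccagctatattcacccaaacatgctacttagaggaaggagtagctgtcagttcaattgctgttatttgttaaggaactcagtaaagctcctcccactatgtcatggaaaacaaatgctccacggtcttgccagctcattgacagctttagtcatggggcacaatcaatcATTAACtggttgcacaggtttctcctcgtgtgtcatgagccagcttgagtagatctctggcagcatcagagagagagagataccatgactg
Fgb, chr3:83049814-83050113, minus strand: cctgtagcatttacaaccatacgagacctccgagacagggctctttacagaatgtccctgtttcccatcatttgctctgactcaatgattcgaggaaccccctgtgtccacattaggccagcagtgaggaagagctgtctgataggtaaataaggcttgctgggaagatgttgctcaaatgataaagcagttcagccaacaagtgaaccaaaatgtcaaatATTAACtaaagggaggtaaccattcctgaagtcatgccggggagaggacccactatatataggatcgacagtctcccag
Pck1, chr2:173152823-173153122, plus strand: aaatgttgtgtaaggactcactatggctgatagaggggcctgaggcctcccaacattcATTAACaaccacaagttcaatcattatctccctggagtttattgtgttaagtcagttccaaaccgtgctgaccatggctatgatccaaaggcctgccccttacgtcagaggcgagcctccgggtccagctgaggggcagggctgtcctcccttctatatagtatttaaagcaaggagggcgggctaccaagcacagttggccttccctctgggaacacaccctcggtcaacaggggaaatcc
The motif begins 32 bases before the annotated start in Alb, 21 in Serpina1a, 29 in Fgb and 41 in Ugt1a1, and 192 bases before it in Pck1.

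The other motifs were searched on both strands of the same windows. The DR1 element of nuclear receptors matched no member window and 0.044% of all promoters. The HNF4 element CAAAGTCCA was found in 1 of the 36, Cyp3a11 (0.477% of all promoters), the FOXA motif TGTTTAC in 4 (3.55%) and TATAAA in 8 (14.2%). Later windows, which were not counted, held TATAAA in Rbp4, Apoe and Cp, and GTTAAT and the FOXA motif in Apoe. The C/EBP palindrome TTGCGCAA and the cyclic AMP element TGACGTCA matched none of the 36, against 0.185% and 1.88% of all promoters. A match is a run of letters and was not tested as a binding site, and the absence of a match concerns these letters in these windows alone.

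Transport proteins were the role in which every member was measured. Values below follow the order Control 2, 3, 4 and then SMF 1, 2, 3. Rbp4, which carries retinol from the liver, was the most abundant member, 179th of all listed genes by mean FPKM. It stood at 182, 193 and 191 FPKM in Control 2, 3 and 4 and at 206, 199.8 and 211 in SMF 1, 2 and 3. The lowest SMF value was above the highest control value, and the ratio of means was 1.09. The log2 fold was 0.12 (95% confidence interval 0.04 to 0.21), with an unadjusted p of 0.0106 and an adjusted p of 0.184 by limma over all genes (adjusted p = 0.0835 by limma-voom). When GC content and gene length were first fitted out of each library, the log2 fold of Rbp4 was 0.02 (adjusted p = 0.837).

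Trf, the iron carrier transferrin, was at 73.0, 66.0 and 63.8 FPKM in Control 2, 3 and 4 and at 69.9, 69.95 and 75.0 in SMF 1, 2 and 3. The groups overlapped through Control 2 (log2 fold 0.08, interval -0.04 to 0.21, adjusted p = 0.445). Alb, the main protein of plasma, was at 34.1, 27.1 and 26.2 FPKM without the field and 28.0, 29.6 and 33.5 with it. Its highest value was in Control 2 and its lowest in Control 4, so the groups overlapped (log2 fold 0.06, interval -0.17 to 0.30, adjusted p = 0.766). Ttr, which carries thyroid hormone and the complex of retinol with Rbp4, was the least even of the carriers, at 36.3, 20.3 and 18.96 FPKM without the field and 26.6, 21.96 and 32.6 with it. Control 2 was above every SMF library and Controls 3 and 4 below every one (log2 fold 0.14, interval -0.39 to 0.67, adjusted p = 0.769). Without Control 2 the log2 fold of Ttr was 0.43, and without Control 4 it was -0.02. Rbp4 was thus 5.01 times Ttr in Control 2 and 9.52 and 10.1 times in Controls 3 and 4, per kilobase of gene.

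Afp, the fetal albumin, was close to the filter at 1.14, 1.42 and 1.45 FPKM without the field and 1.55, 1.68 and 1.95 with it, from 64 to 118 reads a library. No SMF library overlapped a control (log2 fold 0.22, interval -0.02 to 0.47, adjusted p = 0.308, and 0.25 with GC content and length fitted out). Its ratio of means was 1.29, the highest among tested members. Alb exceeded Afp by 18.1 to 29.8 times in controls and by 17.2 to 18.1 times in SMF libraries, and the highest of these ratios was in Control 2. Ambp, the precursor of alpha-1-microglobulin and bikunin, was at 1.197, 1.33 and 1.88 FPKM without the field and 1.56, 1.52 and 2.13 with it, with overlapping groups (log2 fold 0.15, adjusted p = 0.581).

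Among the 8 genes of lipoproteins and their assembly, the line held Apob, Apoe and Mttp and next to none of the small exchangeable apolipoproteins. Apob, the structural protein of very low density lipoprotein, was at 8.13, 7.87 and 8.12 FPKM without the field and 7.17, 8.35 and 7.77 with it (log2 fold -0.05, interval -0.19 to 0.09, adjusted p = 0.704). Apoe, a ligand of lipoprotein receptors, was at 5.04, 6.66 and 5.33 FPKM without the field and 7.84, 5.14 and 5.39 with it. SMF 1 held the highest Apoe value, and without it the log2 fold went from 0.08 to -0.08 (adjusted p = 0.788 with all libraries). Mttp, which loads lipid onto apolipoprotein B, was at 1.49, 1.64 and 1.38 FPKM without the field and 1.01, 1.40 and 1.52 with it (log2 fold -0.12, interval -0.39 to 0.15, adjusted p = 0.602). The groups overlapped for each of these 3 genes.

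The other 5 apolipoprotein members were below 1 FPKM in every library. Apoa1, the main protein of high density lipoprotein, had 4, 4 and 7 reads without the field and 7, 7 and 13 with it, or 0.195, 0.178 and 0.333 FPKM against 0.365, 0.328 and 0.585. Apoh, a phospholipid binding plasma protein, had 5, 4 and 3 reads against 6, 7 and 9, which is 0.189, 0.138 and 0.111 FPKM against 0.243, 0.254 and 0.314. The groups of Apoh did not overlap, and those of Apoa1 did, because Control 4 was above SMF 2. Apoc1 and Apoc3, regulators of lipoprotein lipase, had 4 and 6 reads in all 6 libraries together. Apoa2 had no read, which allows up to 0.307 to 0.360 FPKM in a library (3 reads, counting error only).

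None of the 4 coagulation members with a row passed the filter. The fibrinogen chains Fga, Fgb and Fgg, which form the clot, had 24, 14 and 2 reads over the 6 libraries, and F2, prothrombin, had 12. The highest value among the 4 genes was 0.154 FPKM, for Fga in SMF 2. Reads of Fgb came from Control 4, SMF 2 and SMF 3, with none in the other libraries, so its groups overlapped.

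Of the protease inhibitors, Itih2, a heavy chain that binds hyaluronan, was the 1 tested member. It was at 3.67, 3.03 and 3.88 FPKM without the field and 4.37, 3.23 and 3.79 with it, overlapping between groups (log2 fold 0.08, interval -0.17 to 0.33, adjusted p = 0.711). Serpinf1, an antiangiogenic serpin, lay just under the filter at 0.661 to 0.862 FPKM, with 100 reads without the field and 92 with it. Serpina1a, an alpha-1-antitrypsin gene whose value is uncertain because its copies Serpina1b to Serpina1e are near-identical, had 6, 10 and 5 reads without the field and 10, 15 and 12 with it. As FPKM these were 0.197, 0.2999 and 0.160 against 0.352, 0.474 and 0.365, with no overlap, although Control 3 and SMF 1 had the same number of reads. Serpinc1, antithrombin, had 30 reads in controls, 20 of them in Control 2, and 37 in SMF libraries. Serping1, the C1 inhibitor, had 2 reads, both in Control 2.

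Complement, acute phase and metal binding genes included 3 abundant members. Cp, the copper ferroxidase ceruloplasmin, was at 75.9, 65.2 and 66.8 FPKM without the field and 61.6, 69.9 and 68.6 with it (log2 fold -0.05, interval -0.21 to 0.10, adjusted p = 0.703). Hpx, the heme binding hemopexin, was at 40.9, 39.0 and 37.8 FPKM without the field and 39.4, 34.7 and 38.5 with it (log2 fold -0.06, interval -0.19 to 0.06, adjusted p = 0.568). With GC content and length fitted out, the log2 fold of Hpx was -0.14 (interval -0.23 to -0.04, limma unadjusted p = 0.00988, adjusted p = 0.271). In that fit the intervals of Afp and Asl lay above 0. C3, the central complement protein, was at 32.6, 24.0 and 22.01 FPKM without the field and 25.8, 26.3 and 28.4 with it. As with Ttr, Control 2 lay above every SMF library and the other controls below every one; the log2 fold of C3 was 0.05 (interval -0.23 to 0.34, adjusted p = 0.846), 0.21 without Control 2 and -0.06 without Control 4. Hp, which binds free hemoglobin, straddled the filter at 1.09, 1.33 and 0.951 FPKM without the field and 0.803, 1.15 and 1.39 with it (adjusted p = 0.973). Cfb, a protease of the alternative complement pathway, stayed under it at 0.640 to 0.895 FPKM. Hamp, the iron hormone hepcidin, had 0, 1 and 2 reads without the field and 6, 5 and 0 with it, or 0, 0.134 and 0.286 FPKM against 0.943, 0.706 and 0; its value is uncertain because Hamp2 is a close copy.

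Of the urea cycle genes, Asl alone was measured above the filter. Asl, argininosuccinate lyase, which releases arginine and fumarate, was at 14.8, 14.8 and 14.5 FPKM without the field and 16.1, 15.9 and 16.3 with it, from 1188 to 1419 reads. All 3 SMF libraries were above all 3 controls, with a ratio of means of 1.10. The log2 fold was 0.12 (interval 0.03 to 0.22), with an unadjusted p of 0.0137 and an adjusted p of 0.198 by limma over all genes (0.170 by limma-voom), and 0.08 with GC content and length fitted out (adjusted p = 0.387). Cps1, which makes carbamoyl phosphate in the first step of the cycle, and Ass1, argininosuccinate synthase, had 1 read each, both in SMF 3. Arg1, the liver arginase that releases urea, had none, which allows up to 0.0740 to 0.0868 FPKM in a library. Of the members with a row, the enzymes next to Asl in the cycle, Ass1 and Arg1, thus had at most 1 read in any library.

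None of the 4 members of gluconeogenesis and tyrosine breakdown passed the filter either. Pck1, the cytosolic enzyme that commits carbon to glucose, had no read, and G6pc and Fbp1, phosphatases of late steps, had 1 read each, both in Control 2. Tat, tyrosine aminotransferase, which glucocorticoids induce in hepatocytes, had 7 reads without the field and 15 with it, 0 to 0.188 FPKM, and its groups overlapped. Ugt1a1, which conjugates bilirubin, had 31 and 38 reads; it shares its last exons with the other Ugt1a genes, so the value is uncertain.

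For bile acids, the mitochondrial Cyp27a1, sterol 27-hydroxylase of the acidic pathway, was at 4.80, 6.09 and 7.05 FPKM without the field and 6.88, 6.52 and 7.17 with it. Control 2 was the lowest and the groups overlapped through Control 4 (log2 fold 0.18, interval -0.07 to 0.44, adjusted p = 0.406). Cyp7a1, the rate-limiting enzyme of the classic pathway, had no read, which allows up to 0.0395 to 0.0463 FPKM in a library. The bile acid importer Slc10a1 had 1 read and the bile salt export pump Abcb11 had 4.

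**Figure D3:**
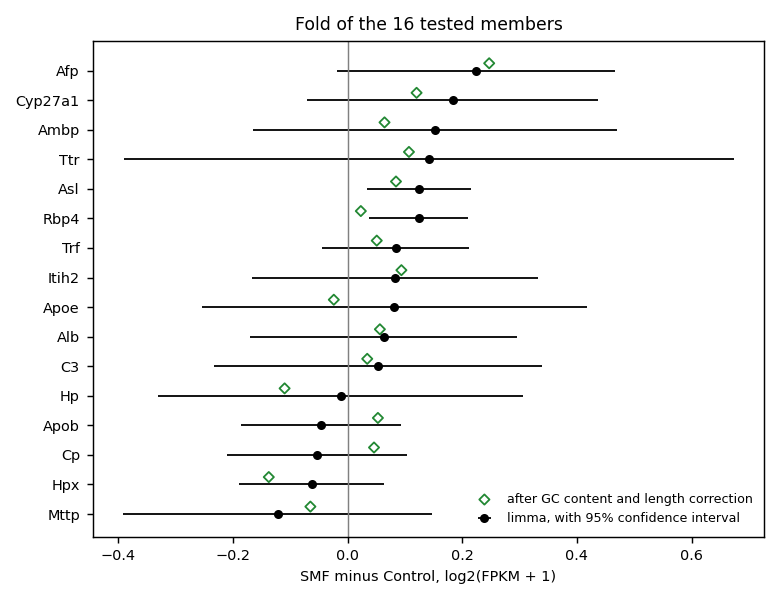
Log2 fold of the 16 tested members on the log2(FPKM + 1) scale, SMF minus Control (black points, with 95% confidence intervals from limma), and the fold after a correction for GC content and gene length (open diamonds). The intervals of Rbp4 and Asl lie above 0 before adjustment over all genes, and the other 14 include 0.

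Across the 16 tested members, none passed an adjusted p of 0.05 by limma (adjusted p = 0.184 to 0.973) or by limma-voom (0.0835 to 0.982), beside 0.0% and 4.59% of all tested genes. An unadjusted p under 0.05 was met by Rbp4 and Asl, 2 of 16, in limma and by 2 of 16 in limma-voom; over all tested genes the shares were 18.0% (9.41% in the higher direction) and 21.5%. Groups did not overlap for Rbp4, Asl and Afp, each higher in the SMF libraries, which is 3 of 16 beside 11% of tested genes, and for no member in the lower direction, beside 12.7%. The fold was above 0 for 11 members and below 0 for 5, where 46.7% of all tested genes were above 0. The median log2 fold of the 16 was 0.082 and that of all tested genes -0.0096; the member median was 0.019 without Control 4 and 0.031 without SMF 3. With GC content and length fitted out it was 0.052.

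Deviations between single libraries were larger than those between groups for several secreted proteins. Ttr, C3 and Alb had their highest value in Control 2 and their lowest in Control 4, while Rbp4, Apoe, Afp, Cyp27a1 and Ambp had their lowest in Control 2. SMF 3 held the highest SMF value of 11 of the 16 members. Leaving out 1 library changed the sign of the fold for Alb, Ttr, Apob, Apoe, Itih2, C3, Hp and Cp, none of which passed the test.

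**Figure D4:**
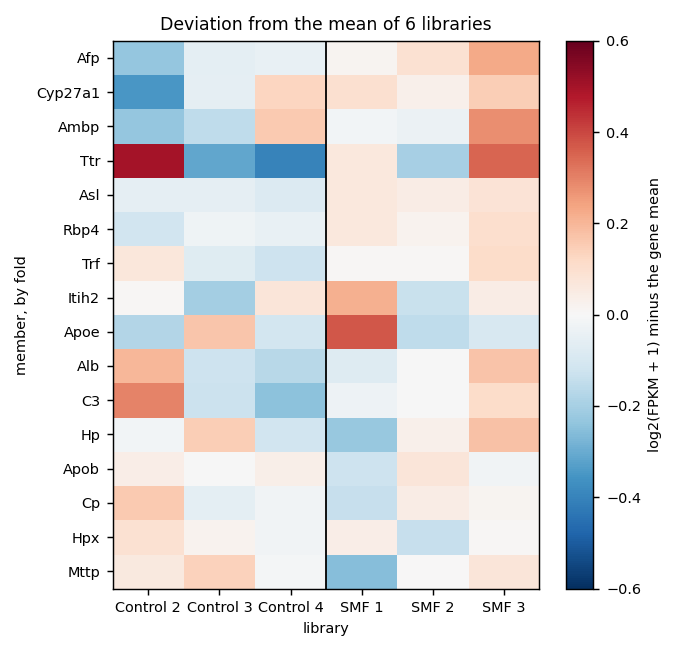
Deviation of log2(FPKM + 1) from the mean of the 6 libraries for each of the 16 tested members (rows, ordered by fold) in each library (columns, Control left and SMF right of the line). Ttr and C3 are highest in Control 2, and Rbp4, Asl and Afp are lower in every Control than in every SMF library.

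The 26 members with a row that did not pass the filter reached at most 0.943 FPKM, and together held 797 reads over the 6 libraries, with 226 in Cfb, the highest. Of them, 4 had no read, 10 had 1 to 9 and 12 had 10 or more. Among these 12, Apoh and Serpina1a were higher in every SMF library than in every control, 2 of 12 beside 6.81% of all untested genes with at least 10 reads, and none was lower in every SMF library, beside 5.3%. In limma-voom fitted to all 15938 genes with at least 10 reads, a fit chosen after seeing the data, none of the 28 members with enough reads passed the adjusted threshold (3.12% of all genes did) and 2 had an unadjusted p under 0.05 (17.6% of all genes). In that fit the log2 fold was 0.84 for Serpina1a (adjusted p = 0.476) and 0.85 for Apoh (adjusted p = 0.573). These 2 genes had 3 to 15 reads a library.

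**Figure D5:**
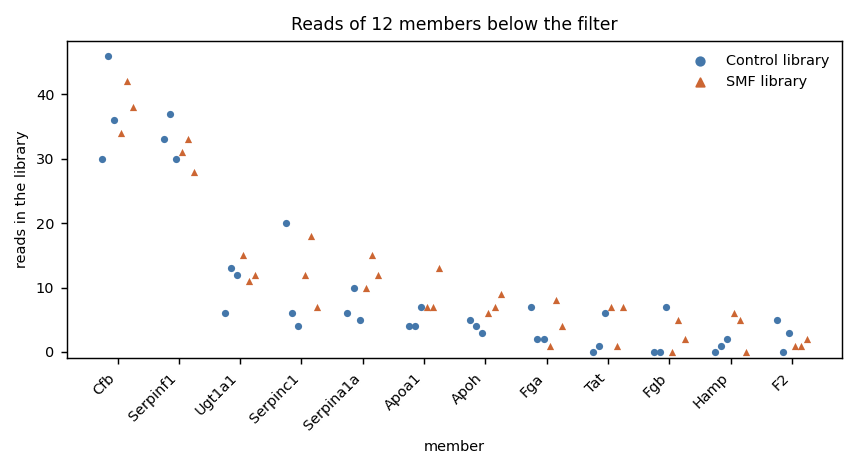
Reads in each library for the 12 members that did not pass the filter and had at least 10 reads over all libraries (circles are Control, triangles SMF libraries; reads are not scaled to library totals). Cfb and Serpinf1 have 28 to 46 reads a library and the other 10 at most 20.

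Lists of further genes of the same roles, written down for the comparison with earlier results of these data known, were read in the same way. No gene of the 8 lists below passed limma over all genes. An unadjusted p under 0.05 by limma was met by 1 of 9 tested plasma protein, 3 of 4 coagulation and 1 of 5 complement genes. It was also met by 2 of 9 amino acid, 2 of 7 sugar and 1 of 6 cytochrome genes. None of the 2 apolipoprotein or 5 bile acid genes tested met it, and the share over all tested genes was 18.0%. Igfbp4, Mat2a and 1 gene of the sugar list passed limma-voom, beside 4.59% of all tested genes. Of 39 other plasma protein genes, 31 had a row, 9 were tested and 8 of the 9 had a fold above 0 (median 0.09), beside 46.7% of all tested genes. With GC content and length fitted out, the median of these 9 was 0.064. The most abundant were Clu, the chaperone clusterin, at 331 ± 22.1 FPKM without the field and 355 ± 9.35 with it, and Selenop, the selenium carrier, at 208 ± 20.8 and 217 ± 11.7. Igfbp4, which binds insulin-like growth factors, was at 176 ± 8.39 and 192 ± 5.68 FPKM and passed limma-voom narrowly (adjusted p = 0.0496), though not limma (0.208). Of 13 other coagulation genes 4 were tested, led by Proc, protein C, at 20.2 ± 0.83 and 22.5 ± 1.68 FPKM and F3, tissue factor, at 15.2 ± 0.76 and 13.6 ± 0.89. Of 16 other complement genes 5 were tested, with C1s1 at 40.7 ± 6.99 and 37.3 ± 1.84 FPKM and C1ra at 15.8 ± 0.69 and 17.2 ± 0.996, both proteases of the C1 complex. Of 9 other apolipoprotein genes 2 were tested, Apon at 2.64 ± 0.15 and 2.73 ± 0.31 FPKM and Apobec1, the editing enzyme of Apob mRNA, at 1.40 ± 0.26 and 1.503 ± 0.29.

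Metabolic genes outside the members were also unevenly measured. Of 20 other urea cycle and amino acid breakdown genes 9 were tested, with 3 folds above 0, beside 46.7% of all tested genes. Mat2a, the methionine adenosyltransferase of non-hepatic and dividing cells, averaged 68.2 ± 1.27 FPKM without the field and 59.7 ± 4.38 with it, lower by limma-voom (adjusted p = 0.02) but without passing limma (0.170). Gldc, of the glycine cleavage system, stood at 43.1 ± 0.57 and 41.2 ± 1.32 FPKM, and Nags, which makes the activator of Cps1, was at 0 in every library. Of 12 other glucose and fructose genes 7 were tested, with 6 folds above 0 (median 0.10), beside the same 46.7%. With GC content and length fitted out, the median of these 7 was 0.052. Pklr, liver pyruvate kinase, was at 56.2 ± 0.98 and 60.4 ± 2.58 FPKM. Pck2, the mitochondrial counterpart of Pck1, was measured at 18.1 ± 0.90 and 19.4 ± 0.34 FPKM. Of 23 other cytochrome P450 and conjugation genes 6 were tested, led by Ephx1, epoxide hydrolase, at 90.5 ± 1.59 and 95.8 ± 1.40 FPKM and Por, the electron donor of microsomal P450 enzymes, at 81.9 ± 0.66 and 86.7 ± 3.50. Of 20 other bile acid genes 5 were tested, with the basolateral exporters Abcc3 at 92.3 ± 2.30 and 91.7 ± 0.81 FPKM and Abcc4 at 29.1 ± 0.61 and 29.5 ± 1.98; Cyp8b1, which sets the cholic acid branch, was at 0 in every library.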

How the data were processed

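Poly(A) RNA of 3 Control and 3 SMF samples was sequenced, with group and number taken from the sample titles. The values are FPKM calculated by the authors and deposited as 1 file per library; the submitters' processing notes name Bowtie2 2.2.3, HISAT2 2.1.0 and the build GRCm39 without saying what each was used for. The counting tool, the treatment of multi-mapping reads and any strand marking are not stated in the sources used here. Symbols, exon lengths and GC content came from GENCODE M21. With M21 exon lengths, 96.94% of the 22004 genes above 0 gave whole reads in every library (tolerance 0.02 reads); for other genes the length was searched for.

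Genes with at least 1 FPKM in at least 3 libraries (11114) were tested on log2(FPKM + 1) by limma 3.58.1 (R 4.3.3), two-sided, with a variance trend and Benjamini-Hochberg adjustment over all genes (threshold 0.05). This scale understates the change of low genes, and intervals are at 95%. Alternatives included limma-voom on the recovered reads, a loess correction (span 0.3) for GC content and length within each library, other scalings, filters and pseudocounts, a block on replicate number, and leaving out each library. The code of the fits was tried on simulated data in which every gene had the same spread between libraries. That check does not measure how well the fits find small changes in these data, where genes such as Ttr are less even. By rule, values in every library are given for members that passed the filter or had an unadjusted p under 0.05 and for Alb, Afp, Cps1, Cyp7a1, Hamp and Serpina1a; other members are given by role, and from each further list the 2 most abundant genes and any past the threshold, except for a gene whose result is not reported here. Other members with per-library values, and Igfbp4, Pck2, Nags, Cyp8b1, Cebpa, Onecut2 and the Serpina1 copies, were added after their values were seen. The members and lists were chosen with earlier results of these data known.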

Additional observations from a re-analysis of the deposited data

How the results depend on the processing

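No member passed the threshold under any of the 19 alternatives, the lowest adjusted p being 0.0835 (Rbp4, limma-voom). The number of all genes past it was 0 by limma, 8 with a filter at 5 FPKM, 510 by limma-voom, 497 by limma-voom on genes with at least 10 reads, and 0 to 3 with 1 library left out. With the replicate block it was 19, and 21 with the replicate block and the GC content and length correction. Control 4 and SMF 1 have no partner of the same number. Every fold with the replicate block therefore rests on Control 2 and 3 against SMF 2 and 3 alone. Replicate numbers 2 and 3 are shared by the groups but their deviations correlated by only 0.058 and 0.046, and with fewer than 3 pairs these are samples that share a number and no more. The member median ranged from 0.0193 to 0.117 with 1 library left out. Of 299 member folds over the alternatives, 275 kept their sign and 24 did not. The sign was kept throughout by 8 members, Rbp4, Asl, Afp, Trf, Ambp, Cyp27a1, Hpx and Mttp. These counts overstate stability, because some alternatives could not change a fold. Leaving out the filter or the variance trend, or filtering at 5 FPKM, changes only the test and leaves each fold as in the main fit. The 2 limma-voom fits also gave nearly the same folds as each other. With the replicate block the log2 fold was -0.021 for Ttr, 0.00918 for Apob, -0.119 for Apoe, -0.0309 for C3 and 0.0381 for Hp. With the replicate block and the correction it was -0.0488 for Ttr, 0.0691 for Apob, -0.183 for Apoe, -0.0388 for C3 and 0.0339 for Cp. With the correction alone it was 0.0527 for Apob, -0.0242 for Apoe and 0.0459 for Cp. With 1 library left out it ran from -0.00712 to 0.178 for Alb, -0.0245 to 0.427 for Ttr, -0.095 to 0.00248 for Apob, -0.084 to 0.184 for Apoe, -0.00313 to 0.17 for Itih2, -0.0581 to 0.215 for C3, -0.105 to 0.0976 for Hp and -0.0953 to 0.0132 for Cp. The cause of these changes was not tested. By mean TPM in place of FPKM, 4, 8, 10, 16 and 4 members fell into the 5 level classes.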

Other observations

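The factors that drive these genes were unevenly measured. Of 15 hepatocyte transcription factors, 9 were tested, 6 with a fold above 0 (beside 46.7% of all tested genes), and none passed limma over all genes. Cebpa, the C/EBP factor of resting hepatocytes, was at 0.926 ± 0.21 and 1.19 ± 0.28 FPKM, while Cebpb, the form induced by stress and injury, was at 43.2 ± 3.34 and 55.2 ± 3.01 (adjusted p = 0.138 by limma and 0.00444 by limma-voom). With GC content and length fitted out, Cebpb had a log2 fold of 0.18 in place of 0.35. Onecut2 was at 9.03 ± 0.43 and 7.26 ± 0.38 FPKM (adjusted p = 0.147 by limma and 0.00264 by limma-voom). By limma-voom, 1 of the 9 tested factors passed as higher (Cebpb) and 1 as lower (Onecut2), beside 4.59% of all tested genes. Cebpa and Onecut2 were picked after their values were seen.

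Among the copies of alpha-1-antitrypsin, reads fell mainly on Serpina1b, at 1.16 ± 0.20 FPKM without the field and 1.29 ± 0.25 with it (adjusted p = 0.736 by limma). Serpina1d and Serpina1e were at 0 in every control and at most 0.0830 and 0.0344 FPKM in SMF libraries, and Serpina1c reached 0.129. These values rest on 3, 1 and 7 reads over all 6 libraries, too few to set the groups apart. The sources used here do not say how the authors' counting divides reads among these copies.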
